A study of Homo sapiens with 8 samples.

Results

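The chromatin around 10 genes of the NRF2 pathway was examined: NFE2L2, which encodes NRF2, its repressor KEAP1, and the detoxification genes NQO1, GCLM, GCLC, TXNRD1, SRXN1, HMOX1, SLC7A11 and AKR1B10. They were taken by name, 10 of the 19974 protein-coding genes of the RefSeq gene table of GRCh38.p14 that were compared. For each gene, all ATAC-seq peaks in the gene and 50 kb either side were taken from each of 8 peak lists, 387 peaks in all. ATAC-seq uses a transposase to insert sequencing adapters into open chromatin, so a peak marks a stretch of accessible DNA. The samples came from H1975 and HCC44, both established human lung cancer cell lines grown in culture and labelled WT in all 8 samples. Each line received DMSO, the solvent, or ACBI1 at a labelled dose of 1 mM, for 96 h, with 2 replicates in each of the 4 groups. ACBI1 directs the SWI/SNF remodelling ATPases SMARCA2 and SMARCA4, and the subunit PBRM1, to degradation. The DMSO samples serve as the controls. The labels do not say whether replicates were separate cultures, so each p-value measures only the spread between these samples, which may be technical.

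NRF2 is a transcription factor of the oxidative stress response. KEAP1 is the adaptor that brings NRF2 to the CUL3 ubiquitin ligase for degradation, and electrophiles or oxidants that modify KEAP1 let NRF2 accumulate. NRF2 then pairs with a small MAF protein at antioxidant response elements in the DNA near genes for glutathione synthesis, the thioredoxin system, quinone and carbonyl reduction and haem breakdown. In lung cancer the pathway is known for mutations of KEAP1 and NFE2L2 that keep it switched on.

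The 4 DMSO lists held 41027 to 50347 peaks and the 4 ACBI1 lists 22133 to 27682, the shortest being that of H1975 ACBI1 replicate 2. The depth in reads is unknown, and whether a peak is listed depends on depth and background. The absence of a peak does not measure closed chromatin, and a count of peaks is read here beside the same count over all genes. Ranks are given as the share of a sample's own list that had an equal or higher −log10 q, so the top 5% are the strongest peaks of that list. Of 6 epithelial markers, EPCAM, KRT7, KRT18 and KRT19 carried a start peak in all 8 samples, CDH1 in 7 and KRT8 in 2. The endothelial markers PECAM1, CDH5 and VWF and the blood marker PTPRC carried none, while the blood markers SPI1 and CD3E carried one in 8 and 3 samples. Among 4 mesenchymal markers, COL1A1 had one in all 8 samples, VIM in 7, COL1A2 in 4 and PDGFRB in 1. Of the lung lineage genes, SFTPC and NAPSA had a start peak in all 8 samples, NKX2-1 in 5 and SFTPB in none.

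The promoters whose letters bear on these peaks are printed first, because the start peaks of 9 genes were in every list. Each runs from 250 bases before to 50 bases after a start, 5′ to 3′ on the gene's strand, from RefSeq (GRCh38.p14). The core of the antioxidant response element, TGACNNNGC, was searched on both strands, and its matches are in capitals, as the letters of the strand shown (a match on the other strand therefore begins with GC). Of 35116 such promoters, 13.3% hold at least 1 match. Those of GCLM (1 match), KEAP1 (2 matches at 1 of 2 starts) and TXNRD1 (2 at the upstream start and 1 at the downstream start) hold the 6 matches found among the members. The 2 promoters of NFE2L2 are shown beside them as the pathway's factor and hold none, as do those of GCLC, NQO1 and SRXN1. The AP-1-like motif TGANTCA, which shares the letters TGA with the element, was not found on either strand in any of these promoters, against 7.71% of all promoters. HMOX1, SLC7A11 and AKR1B10 were matched by gene position only.
GCLM, chr1:93909381-93909680, - strand: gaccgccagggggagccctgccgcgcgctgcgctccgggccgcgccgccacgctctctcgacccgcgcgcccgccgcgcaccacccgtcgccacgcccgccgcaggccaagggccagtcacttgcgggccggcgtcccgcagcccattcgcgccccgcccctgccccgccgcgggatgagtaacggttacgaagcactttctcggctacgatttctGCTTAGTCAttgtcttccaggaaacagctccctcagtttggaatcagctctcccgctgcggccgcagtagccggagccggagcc
KEAP1 start at 10502771, chr19:10502722-10503021, - strand: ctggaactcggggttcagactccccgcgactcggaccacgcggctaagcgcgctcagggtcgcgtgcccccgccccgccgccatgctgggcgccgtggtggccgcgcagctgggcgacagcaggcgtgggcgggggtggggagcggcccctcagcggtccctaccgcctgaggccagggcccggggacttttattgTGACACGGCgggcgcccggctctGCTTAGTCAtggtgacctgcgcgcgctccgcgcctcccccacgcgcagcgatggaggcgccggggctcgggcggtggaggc
KEAP1 start at 10503356, chr19:10503307-10503606, - strand: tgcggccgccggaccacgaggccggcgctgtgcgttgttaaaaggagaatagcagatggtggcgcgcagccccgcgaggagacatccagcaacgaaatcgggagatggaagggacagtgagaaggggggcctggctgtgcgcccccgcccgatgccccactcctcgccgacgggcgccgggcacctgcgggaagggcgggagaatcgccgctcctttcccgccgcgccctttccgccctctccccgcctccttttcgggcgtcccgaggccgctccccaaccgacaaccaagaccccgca
TXNRD1 upstream start, chr12:104215529-104215828, + strand: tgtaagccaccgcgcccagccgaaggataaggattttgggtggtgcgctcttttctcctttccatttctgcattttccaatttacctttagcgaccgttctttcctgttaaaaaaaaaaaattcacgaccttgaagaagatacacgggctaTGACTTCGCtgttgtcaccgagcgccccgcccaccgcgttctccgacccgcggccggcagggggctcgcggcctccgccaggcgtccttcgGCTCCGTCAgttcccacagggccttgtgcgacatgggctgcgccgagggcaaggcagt
TXNRD1 downstream start, chr12:104286782-104287081, + strand: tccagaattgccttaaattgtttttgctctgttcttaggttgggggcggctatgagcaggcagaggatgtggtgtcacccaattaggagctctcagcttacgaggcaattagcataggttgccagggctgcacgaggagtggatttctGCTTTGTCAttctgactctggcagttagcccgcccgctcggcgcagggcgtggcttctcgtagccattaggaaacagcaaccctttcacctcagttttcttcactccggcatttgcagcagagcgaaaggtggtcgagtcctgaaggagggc
NFE2L2 start at 177264131, chr2:177264082-177264381, - strand: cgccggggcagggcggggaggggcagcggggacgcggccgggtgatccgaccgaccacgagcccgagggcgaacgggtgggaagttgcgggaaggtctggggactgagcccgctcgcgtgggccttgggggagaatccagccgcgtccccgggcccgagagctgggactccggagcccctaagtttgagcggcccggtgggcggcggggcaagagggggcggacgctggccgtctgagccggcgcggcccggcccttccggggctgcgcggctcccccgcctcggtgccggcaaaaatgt
NFE2L2 start at 177264727, chr2:177264678-177264977, - strand: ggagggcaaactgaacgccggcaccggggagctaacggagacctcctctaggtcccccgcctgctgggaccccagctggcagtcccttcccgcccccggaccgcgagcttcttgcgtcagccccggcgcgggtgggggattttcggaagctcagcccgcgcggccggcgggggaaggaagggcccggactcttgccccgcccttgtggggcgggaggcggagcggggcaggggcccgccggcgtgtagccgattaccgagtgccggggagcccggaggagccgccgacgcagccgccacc

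All 6 matches lay inside a listed peak in all 8 samples. Each of these promoters already had a start peak in every list, so this followed largely from the choice of promoters. At GCLM, KEAP1 and the downstream start of TXNRD1 the peaks covered the whole promoter with the matches. The first base of the GCLM match is 34 bases before the start, in the form GCTTAGTCA. The same letters stand 31 bases before the start of KEAP1 at 10502771, and its other match, TGACACGGC, stands 54 bases before it. In TXNRD1 the matches stand 99 and 8 bases before the upstream start and 102 bases before the downstream start. A match describes letters only, and binding of NRF2 was not measured.

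The starts were the most constant part of these loci: 10 of the 11 regions at the members' own starts were in all 8 lists. So were 10 of the 14 at starts of other genes and 8 of the 57 away from any start. The same shares over all regions are not given. Starts near any protein-coding gene were constant too: of their regions in both DMSO samples, 93.5% in H1975 and 89.8% in HCC44 were in both ACBI1 samples. Away from starts the shares were 35.3% and 29.9%. A start peak was listed in all 8 samples for 9 of the 10 genes, against 51.9% of all protein-coding genes. The exception was AKR1B10, an aldo-keto reductase that reduces aldehydes and retinal. Its gene end with the lower coordinate carried a peak of 914 and 909 bp in the 2 HCC44 DMSO samples, at the top 30.8% and 22.1% of those lists, and none in the other 6 samples. For genes outside the promoter table (HMOX1, SLC7A11 and AKR1B10 among the members) the start was taken as 1 kb either side of either gene end.

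The lines were compared in DMSO first. HCC44 held more peaks than H1975, without overlap between the 2 replicates of each, at NFE2L2, GCLM, TXNRD1 and SRXN1, 4 of 10 genes against 36.9% of all genes, and fewer at HMOX1, 1 of 10 against 17.1%. The median difference, HCC44 minus H1975, was 0.5 peaks per gene for the members and 0.5 for all 18150 genes with a peak in the window, so the members' counts lay near the background. Within DMSO the smallest p that an exact two-sided permutation test can give is 0.333, so no difference between the lines could pass 0.05. The higher count in HCC44 was not seen at any member when peaks under 5-fold enrichment were left out, against 13.9% of all genes. A lower count in HCC44 was then seen at 5 of 10 members, against 38.4%. With every list limited to its 22133 strongest peaks by −log10 q, the higher count was seen at 1 member, GCLC, against 19.2% of all genes. None of the 4 genes named above kept it there.

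TXNRD1, which encodes the cytosolic thioredoxin reductase (chr12:104215779-104350307), differed by the most peaks. The H1975 DMSO samples listed 8 and 7 peaks and the HCC44 DMSO samples 13 and 14. Every HCC44 sample thus lay above both H1975 samples, by 6 peaks on average. With equal numbers of peaks by −log10 q the difference was gone, with 3 and 3 peaks in H1975 DMSO and 2 and 3 in HCC44 DMSO. After peaks of all samples were merged into regions, 6 of the 12 TXNRD1 regions in both HCC44 DMSO samples were in neither H1975 DMSO sample. They were weak, at the top 47.5% to 99.9% of their lists. The region with the best rank in HCC44 DMSO replicate 2 lay before the gene at chr12:104177601-104178303, and another lay at the start of EID3, inside TXNRD1, at chr12:104302759-104304083. Over all 10 genes, 11 of 54 regions (20.4%) in both HCC44 DMSO samples were in neither H1975 DMSO sample, against 29.2% of all regions. In the other direction the count was 6 of 49 (12.2%), against 18.1%.

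The strength of shared regions also differed in order between the lines. The 5 examples here were chosen after their values were seen. A region in the neighbouring gene PDE4A, chr19:10460932-10461744, was at the top 9.25% and 10.9% of the H1975 DMSO lists and at the top 89.4% and 86.2% of the HCC44 DMSO lists. A region before HMOX1, chr22:35371582-35372833, 8889 bp from the gene, was at the top 14.1% and 20.7% in H1975 DMSO and at 60.5% and 49.1% in HCC44 DMSO. It spanned 1225 and 1237 bp in the H1975 DMSO samples, and 617 and 577 bp in those of HCC44. Both regions were listed in all 8 samples, and in both the ranks of the 2 lines by −log10 q did not overlap. The start peak of GCLC went the same way, at the top 12.8% and 8.05% in H1975 DMSO and 32.6% and 27.3% in HCC44 DMSO. Other regions went the opposite way. A region at chr19:10478973-10479999, beyond the far end of KEAP1, was at the top 49.7% and 45.6% in H1975 DMSO and the top 18.3% and 14.3% in HCC44 DMSO. One inside TXNRD1, chr12:104218978-104220456, was at the top 38.7% and 39.1% in H1975 DMSO and the top 17.2% and 15.7% in HCC44 DMSO. By fold enrichment the HMOX1 region overlapped between the lines, at the top 60.2% and 60.7% in H1975 DMSO and 63.6% and 45.2% in HCC44 DMSO. The TXNRD1 region was then reversed, at the top 80.5% and 70.4% in H1975 DMSO and 81.8% and 83.3% in HCC44 DMSO. The remaining examples kept their direction without overlap. Ranks from lists of different lengths give an order within each list, not a change in accessibility.

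After ACBI1 the 10 loci together listed fewer peaks. The sums over the members were 53 and 53 in H1975 DMSO and 42 and 35 in H1975 ACBI1, and 60 and 63 in HCC44 DMSO and 39 and 42 in HCC44 ACBI1. Both ACBI1 samples lay below both DMSO samples at 5 of 10 genes in H1975, against 49.5% of all genes, and at 7 of 10 in HCC44, against 62.4%. In both lines this held for GCLC, HMOX1, SLC7A11 and AKR1B10, 4 of 10 genes against 37.5% of all genes. No member had more peaks in both ACBI1 samples, against 1.65% of all genes in H1975 and 2.03% in HCC44. The median change was −1.5 peaks in H1975 and −1.75 in HCC44 for the members, and −1 and −1.5 for all genes. The members' shares were close to those of all genes.

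An exact two-sided permutation test over both lines, with treatments permuted within each line (36 arrangements), cannot give a p below 0.0556. GCLC, HMOX1, SLC7A11 and AKR1B10 reached that p, as did 37.7% of the 18150 genes, with 0.147 after Benjamini-Hochberg adjustment over all 18150 genes in this exact test. No gene of the 18150 had an adjusted p under 0.05 in this permutation test, and 0 had an unadjusted p under 0.05. No other tool was run on these counts. The difference between the lines in the change, HCC44 minus H1975, had p from 0.333 to 1 over the members by the exact permutation test.

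The direction was not kept at most members when list lengths were made equal, a step that removes more peaks from the longer DMSO lists. With every list limited to its 22133 strongest peaks by −log10 q, 1 of 10 members had fewer peaks in both ACBI1 samples of H1975, against 13.4% of all genes, and 1 of 10 in HCC44, against 15.1%. In both lines this gene was AKR1B10, with 6 and 5 peaks in H1975 DMSO, 3 and 2 in H1975 ACBI1, 5 and 4 in HCC44 DMSO, and 2 and 2 in HCC44 ACBI1. Its exact permutation p over both lines was again the smallest possible, 0.0556. KEAP1 and NQO1 had that same p with more peaks in ACBI1, by 2.25 and 1 on average. More peaks in both ACBI1 samples were then found at 4 of 10 genes in each line, against 28.5% of all genes in H1975 and 36% in HCC44. KEAP1 and NQO1 were among them in both lines, NFE2L2 and GCLC in H1975, and TXNRD1 and SRXN1 in HCC44. With equal numbers taken by fold enrichment instead, AKR1B10 also lost its lower count, with a mean difference of 0.5 over both lines.

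**Figure D1:**
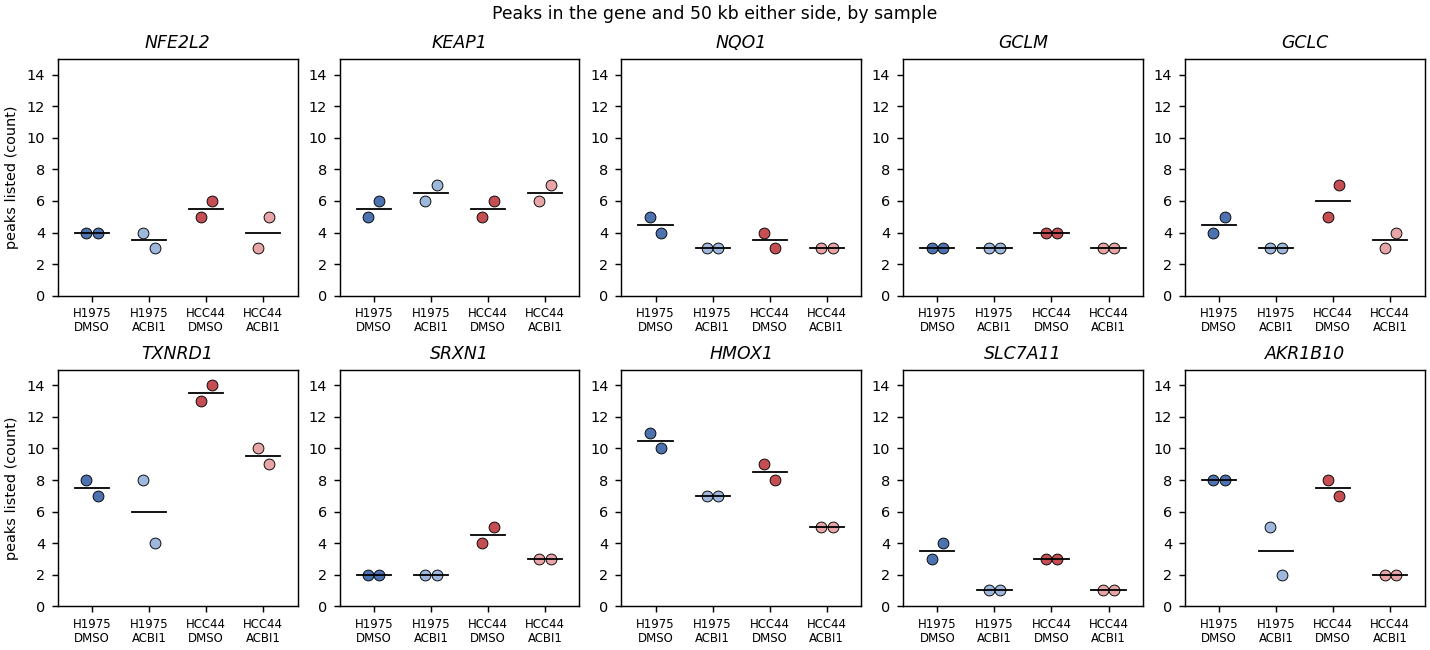
Number of listed peaks (y axis) in each of the 10 genes and 50 kb either side, 1 panel per gene, with 1 point per sample and a line at the mean of the 2 replicates of each group. Both ACBI1 samples lie below both DMSO samples in both lines at GCLC, HMOX1, SLC7A11 and AKR1B10, while the KEAP1 counts stay between 5 and 7.

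Of the regulators, NFE2L2 (chr2:177230303-177264727) listed 4 and 4 peaks in H1975 DMSO, 4 and 3 in H1975 ACBI1, 5 and 6 in HCC44 DMSO and 3 and 5 in HCC44 ACBI1. The treatment groups overlapped in both lines. Its start carried 1 wide peak of 1843 to 2039 bp in all 8 samples, within the top 5.85% to 21.1% of the lists by −log10 q. The strongest region in its window was at the start of the neighbouring HNRNPA3, an RNA-binding protein gene, chr2:177212092-177213414, in the top 1.74% to 9.96% of all 8 lists. Inside NFE2L2, a region at chr2:177244988-177245895, 18690 bp downstream of the start, was in all 4 DMSO lists and in no ACBI1 list. A second one, chr2:177251941-177253252, was in both HCC44 DMSO lists and in no other.

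KEAP1 (chr19:10486125-10503356) listed 5 and 6 peaks in H1975 DMSO, 6 and 7 in H1975 ACBI1, 5 and 6 in HCC44 DMSO and 6 and 7 in HCC44 ACBI1. It was the only member whose mean was higher with ACBI1, by 1 peak in each line, and the groups shared the value 6 (exact permutation p over both lines 0.222). With peaks under 5-fold enrichment left out, its mean change over both lines was −2. None of its 5 regions in both DMSO samples of a line was lost, against 34% (H1975) and 45.5% (HCC44) of regions near genes. The start peak was at the top 4.79% and 5.41% in H1975 DMSO and the top 8.58% and 11.8% in H1975 ACBI1. In HCC44 it was at the top 12.2% and 7.79% in DMSO and the top 20.6% and 31.2% in ACBI1. By share it thus stood lower in both ACBI1 lists of each line. The ACBI1 lists were shorter, and the same place is a larger share of a shorter list. Counted as places by −log10 q, the HCC44 groups overlapped, at 6118 and 3890 in DMSO and 5416 and 7752 in ACBI1. The H1975 places were 2084 and 2221 in DMSO and 2375 and 2621 in ACBI1. The gained region, chr19:10551751-10552953, lies at ATG4D and KRI1, neighbouring genes for an autophagy protease and a protein needed for ribosome assembly. It was listed in both H1975 ACBI1 samples and in neither H1975 DMSO sample, but in HCC44 also in DMSO replicate 2.

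Of the glutathione genes, GCLM encodes the modifier subunit and GCLC the catalytic subunit of glutamate-cysteine ligase, the rate-limiting enzyme of glutathione synthesis, and SLC7A11 the cystine importer that supplies the cysteine. GCLM (chr1:93885199-93909430) listed 3 peaks in each H1975 sample of either treatment, 4 and 4 in HCC44 DMSO and 3 and 3 in HCC44 ACBI1. The HCC44 difference was a single weak region, chr1:93864161-93864688, at the top 96.7% and 91.5% of the DMSO lists. The other 3 GCLM regions, at its own start and at the starts of DNTTIP2 and BCAR3, were in all 8 lists. The region at DNTTIP2, chr1:93878509-93879736, was at the top 1.89% and 1.10% in HCC44 DMSO and the top 10.6% and 20.7% in HCC44 ACBI1.

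GCLC (chr6:53497341-53545101) listed 4 and 5 peaks in H1975 DMSO, 3 and 3 in H1975 ACBI1, 5 and 7 in HCC44 DMSO and 3 and 4 in HCC44 ACBI1. All ACBI1 samples lay below the DMSO samples of their line, with mean changes of −1.5 peaks in H1975 and −2.5 in HCC44. The region lost in both lines, chr6:53593068-53593519, lay 48192 bp upstream of the start, with enrichment of 8.88-fold and 8.69-fold in H1975 DMSO and 8.20-fold and 7.71-fold in HCC44 DMSO. The start peak moved up in the order of HCC44, from the top 32.6% and 27.3% in DMSO to the top 9.39% and 11.1% in ACBI1, without overlap. In H1975 it was at the top 12.8% and 8.05% in DMSO and the top 13.0% and 8.19% in ACBI1. A further region 2981 bp upstream of the start, chr6:53547700-53548464, was in all 8 lists.

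SLC7A11 (chr4:138164097-138242349) listed 3 and 4 peaks in H1975 DMSO, 3 and 3 in HCC44 DMSO, and 1 in each of the 4 ACBI1 samples. The single peak left was the one at the gene end with the higher coordinate, chr4:138241461-138242643, which was in all 8 lists. The region chr4:138235632-138236346, inside the gene and 6360 bp from that end, was in all 4 DMSO lists and in no ACBI1 list. By −log10 q it stood higher in HCC44 DMSO, at the top 37.3% and 42.3%, than in H1975 DMSO, at the top 75.4% and 92.6%. Its fold enrichment went the other way, at 5.82 and 5.25 in HCC44 DMSO and 6.81 and 6.30 in H1975 DMSO. With equal numbers of peaks by −log10 q, each of the 8 samples listed 1 SLC7A11 peak, so the difference was 0. With equal numbers by fold enrichment it was −2 in H1975 and 0.5 in HCC44.

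In the thioredoxin system, TXNRD1 reduces thioredoxin and SRXN1, sulfiredoxin, repairs over-oxidised peroxiredoxins. TXNRD1 listed 8 and 7 peaks in H1975 DMSO, 8 and 4 in H1975 ACBI1, 13 and 14 in HCC44 DMSO and 10 and 9 in HCC44 ACBI1. The treatment groups overlapped in H1975 and did not in HCC44. The mean change in H1975 was −1.5 peaks with both ACBI1 replicates and 0.5 without replicate 2, the shortest list. Both starts kept their peak in all 8 samples. The region 3938 bp downstream of the upstream start, chr12:104218978-104220456, was also in all 8, at the top 17.2% and 15.7% in HCC44 DMSO and the top 51.4% and 33.8% in HCC44 ACBI1. A region 6317 bp before the downstream start, chr12:104280339-104281092, was in all 4 DMSO lists and in no ACBI1 list.

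SRXN1 (chr20:646615-653200) listed 2 peaks in each of the 4 H1975 samples, 4 and 5 in HCC44 DMSO and 3 and 3 in HCC44 ACBI1. Both regions listed in H1975, at the start and at the other end of the gene, were in all 8 samples. The start peak was at the top 8.27% and 8.56% in H1975 DMSO and the top 17.0% and 18.7% in H1975 ACBI1. In HCC44 it was at the top 35.1% and 16.0% in DMSO and the top 48.1% and 43.5% in ACBI1. The 1 gained region of HCC44 lay here, chr20:672988-673632, inside the neighbouring gene SCRT2, a zinc finger repressor gene, at the top 66.0% and 76.7% of the ACBI1 lists and in no other list.

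NQO1 and HMOX1 are classic NRF2 targets, for a quinone reductase and for the haem oxygenase that opens the haem ring. NQO1 (chr16:69709401-69726560) listed 5 and 4 peaks in H1975 DMSO, 4 and 3 in HCC44 DMSO, and 3 in each of the 4 ACBI1 samples. In HCC44 the groups shared the value 3. The 3 constant regions were at its own start and at the starts of NOB1 and WWP2. Its start peak was at the top 5.85% and 7.11% in H1975 DMSO and the top 4.80% and 2.67% in H1975 ACBI1. In HCC44 it was at the top 8.31% and 14.6% in DMSO and the top 19.3% and 17.7% in ACBI1. By its share by −log10 q it stood higher in both ACBI1 lists of H1975 and lower in both of HCC44. Counted as places in these lists of unequal length, the HCC44 groups overlapped, at 4186 and 7303 in DMSO and 5078 and 4390 in ACBI1. By fold enrichment it stood higher in both ACBI1 lists of HCC44 too, at the top 81.9% and 80.0% against 85.1% and 88.7% in DMSO.

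HMOX1 (chr22:35381096-35394207) listed 11 and 10 peaks in H1975 DMSO, 7 and 7 in H1975 ACBI1, 9 and 8 in HCC44 DMSO and 5 and 5 in HCC44 ACBI1. The treatment groups did not overlap in either line, with a mean change of −3.5 peaks in each. With equal numbers of peaks by −log10 q the changes were 0 in H1975 and 0.5 in HCC44. A region 22885 bp before the gene, chr22:35357952-35358470, was among its strongest in DMSO, at the top 14.9% and 18.5% in H1975 and 19.1% and 28.7% in HCC44. With ACBI1 it was listed in H1975 at the top 59.3% and 71.1% and in neither HCC44 sample. The next region towards the gene, chr22:35364142-35364620, was in all 4 DMSO lists and in no ACBI1 list. By contrast, the region 8889 bp before the gene described above was in all 8 lists and stood at the top 8.82% and 29.3% in H1975 ACBI1 and the top 80.5% and 64.9% in HCC44 ACBI1.

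AKR1B10 (chr7:134527567-134541412) listed 8 and 8 peaks in H1975 DMSO, 5 and 2 in H1975 ACBI1, 8 and 7 in HCC44 DMSO and 2 and 2 in HCC44 ACBI1. All 4 ACBI1 samples lay below all 4 DMSO samples. The mean change was −4.5 peaks in H1975 (pooled SD 1.5), or −3 without ACBI1 replicate 2, and −5.5 in HCC44 (pooled SD 0.5). Of its regions in both DMSO samples, 3 of 8 were lost in H1975 and 5 of 7 in HCC44. Among all regions within 50 kb of a protein-coding gene the lost shares were 34% and 45.5%. The strongest region lost in both lines, chr7:134515909-134516319, lay 11453 bp before the gene, at the top 33.1% and 33.6% in H1975 DMSO and 23.1% and 32.0% in HCC44 DMSO. A region inside the gene, chr7:134532741-134533770, at the top 47.8% and 70.4% in H1975 DMSO and 27.4% and 31.8% in HCC44 DMSO, was in no ACBI1 list either. The start peak of the HCC44 DMSO samples, with enrichment of 6.03-fold and 6.22-fold, was the only start peak of the 10 genes that was lost. Next to the neighbouring AKR1B15, a related aldo-keto reductase gene, a peak at chr7:134547079-134547812 stayed in all 8 lists. The peak at the AKR1B15 start, chr7:134548984-134549610, was in both H1975 DMSO samples, H1975 ACBI1 replicate 1 and both HCC44 DMSO samples, and absent from H1975 ACBI1 replicate 2 and both HCC44 ACBI1 samples. In HCC44 DMSO replicate 2 a single peak of 2571 bp covered both places, so they merged into 1 region, chr7:134547015-134549610, wherever regions of HCC44 or of all samples are counted. At chr7:134589473-134590009 a region was listed in both H1975 DMSO samples, at the top 15.4% and 22.1%, and in H1975 ACBI1 replicate 1, and in no HCC44 sample.

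**Figure D2:**
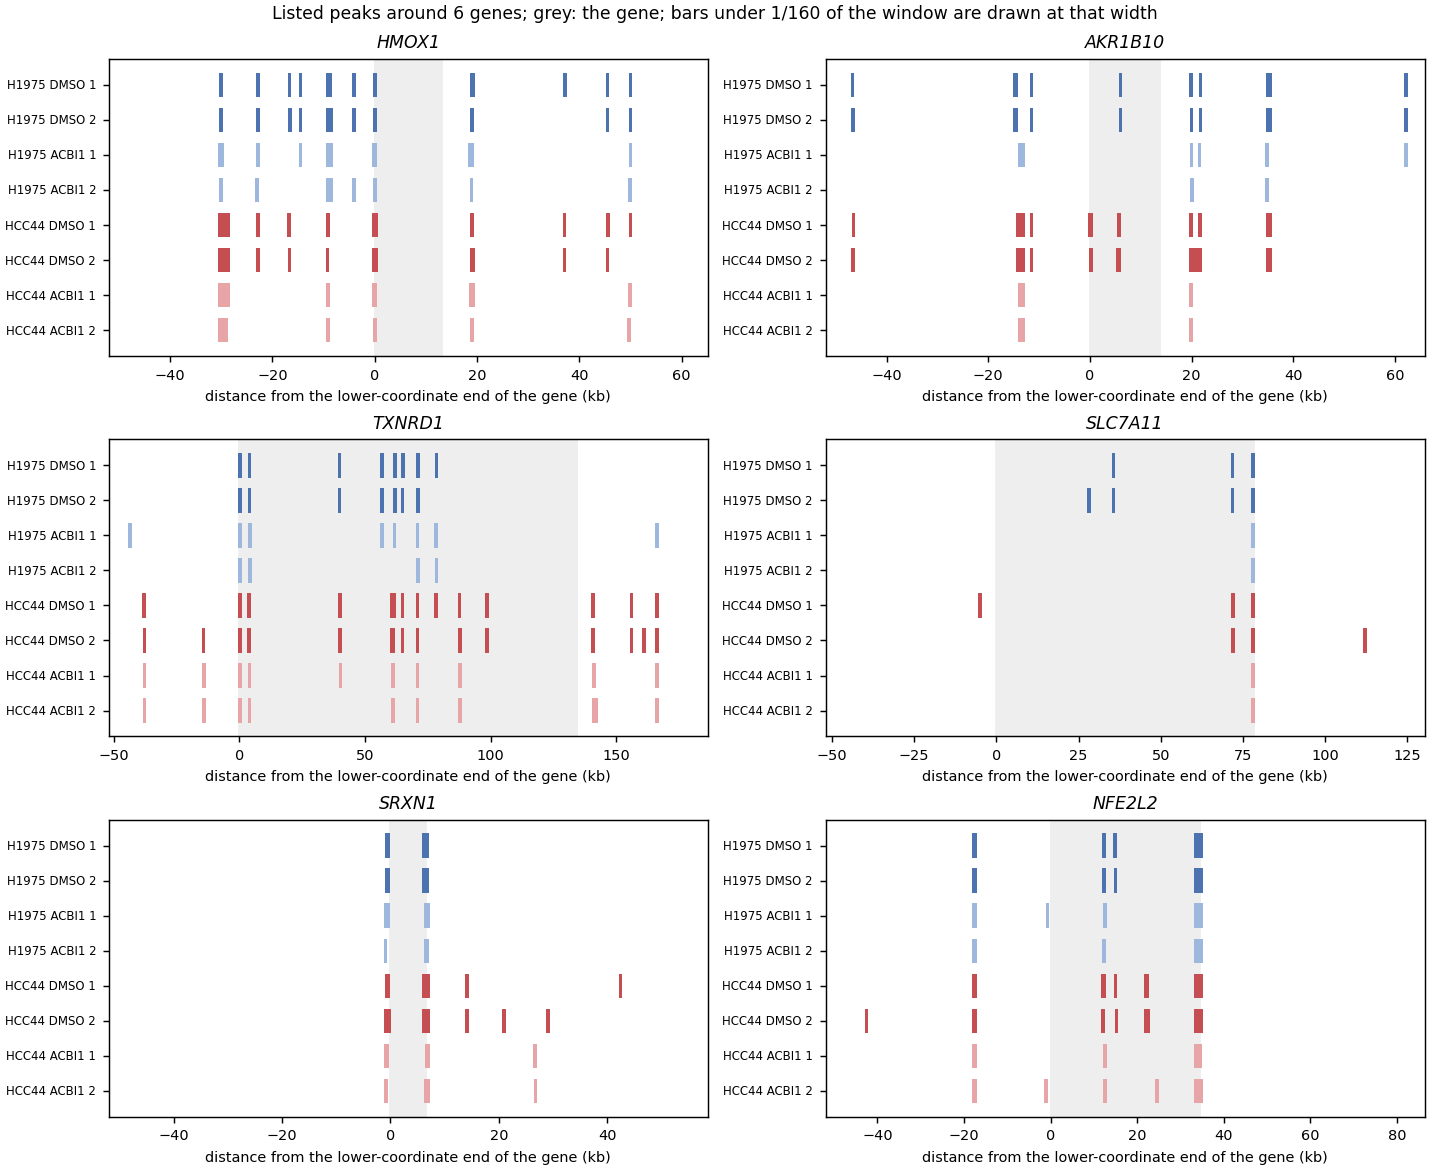
Listed peaks around 6 of the genes, drawn as bars by distance from the lower-coordinate end of the gene in kb (x axis), with 1 row per sample and the gene in grey. The bars at the gene starts stand in every row except at AKR1B10, where the 2 HCC44 DMSO samples alone have one, and the rows of the ACBI1 samples are emptier between the starts.

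Merged within each line, the member regions fell into those lost with ACBI1 (listed in both DMSO samples but not with ACBI1), those retained in all 4 samples and those gained. In H1975, 12 of 50 regions in both DMSO samples (24%) were lost, against 34% of regions within 50 kb of any protein-coding gene and 37.2% of all regions. Another 31 were retained and 7 kept in 1 ACBI1 sample. In HCC44, 19 of 54 (35.2%) were lost, against 45.5% and 49.2%, 34 were retained and 1 was kept in 1 ACBI1 sample. A single region was gained in each line. The members' percentages were thus below those of other genes in both lines, with no test, since regions of 1 sample are not replicates.

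The loss lay away from starts. No region at a start was lost among 20 in H1975, against 3.62% of start regions near genes, and 1 of 22 in HCC44, that of AKR1B10, against 7.24%. The AKR1B15 start, whose own peak was in neither HCC44 ACBI1 sample, is counted among the retained through the wide peak described above. Away from starts 12 of 30 member regions (40%) were lost in H1975, against 50.4%, and 18 of 32 (56.2%) in HCC44, against 62.6%. Lost regions were short: in H1975 their median was 387 bp against 1068 bp for retained ones, and in HCC44 528 bp against 1245.5 bp. A merged region spans the peaks of all samples that list it, which in itself makes retained regions wider. Of the retained regions, 19 of 31 in H1975 and 21 of 34 in HCC44 were at starts. The same medians over all regions are not given. Of the start peaks in both DMSO samples, all 9 were kept in both H1975 ACBI1 samples, against 95.9% over all genes, and 9 of 10 in HCC44, against 92.9%. With peaks under 5-fold enrichment left out, 0 of 3 HCC44 start peaks were kept. The share over all genes was not computed for that setting.

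**Figure D3:**
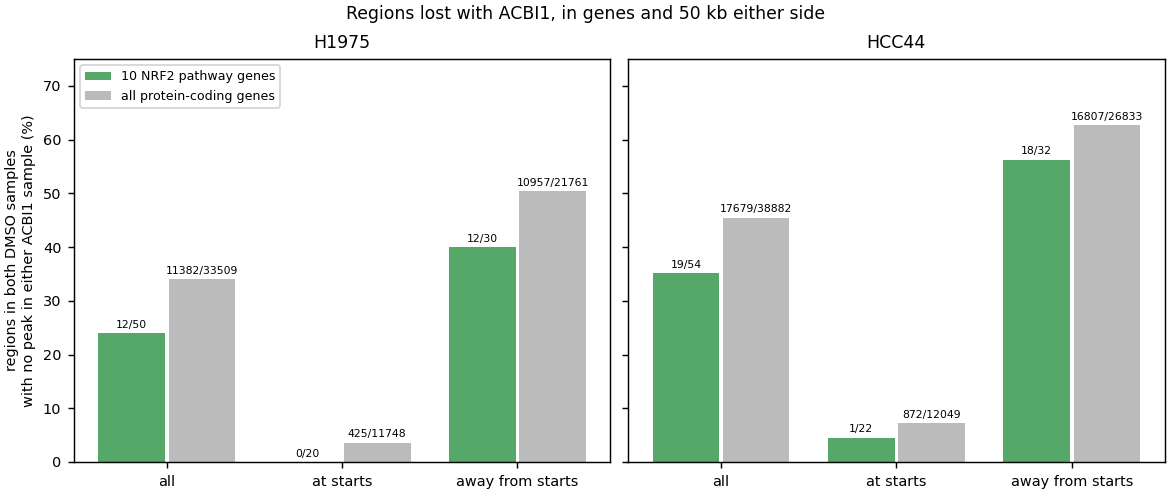
Share of regions in both DMSO samples that had no peak in either ACBI1 sample (y axis, percent), for the 10 NRF2 pathway genes (green) and all protein-coding genes (grey), over all regions, regions at starts and regions away from starts, in H1975 and HCC44. The counts stand above the bars, and the green bars are the lower ones in all 6 pairs.

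Over all 8 samples the peaks merged into 82 regions, of which 28 were in all 8 lists, 42 in all 4 DMSO lists and 13 in a single list. The same shares over all regions are not given, so these counts have no background. Of the 28 constant regions, 10 were at the members' own starts, 10 at starts of other genes and 8 away from starts. The region merged at AKR1B15 is 1 of the 10. The regions in all 4 DMSO lists and in no ACBI1 list numbered 9 of the 42 (21.4%), against 25.1% over all regions, of which 3 were at AKR1B10, 2 at HMOX1 and 1 each at NFE2L2, GCLC, TXNRD1 and SLC7A11. None was at KEAP1, NQO1, GCLM or SRXN1.

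The width of a start peak was taken as a second measure after the lists had been seen. The 9 genes with a start peak in all 8 samples had 10 such peaks, since TXNRD1 had one at each of its starts. In H1975, 4 of 10 were narrower in both ACBI1 samples, against 53.5% of 10727 start peaks, and in HCC44 9 of 10, against 71%. None was wider in both ACBI1 samples of H1975, against 3.36%. In DMSO, 6 of 10 were wider in both HCC44 samples than in both H1975 samples, against 49.3%. Those of NFE2L2, NQO1, GCLC and SRXN1 were narrower with ACBI1 in both lines, 4 of 10 against 44.1%. Without H1975 ACBI1 replicate 1 the H1975 count was 9 of 10, near the 90.4% of all start peaks in that setting. The median change was −0.19 (log2) in H1975 and −0.30 in HCC44 for the members, and −0.19 and −0.22 for all start peaks.

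NQO1 narrowed most in base pairs, from 1687 and 1392 bp in H1975 DMSO to 1303 and 878 bp in H1975 ACBI1, and from 2105 and 2169 bp in HCC44 DMSO to 1603 and 1396 bp in HCC44 ACBI1. SRXN1 went from 1220 and 1261 bp to 1095 and 892 bp in H1975, and from 1495 and 1378 bp to 847 and 1026 bp in HCC44. In both lines the ACBI1 samples of these genes lay below the DMSO samples, as they did for NFE2L2 and GCLC. For these 4 genes the exact permutation p over both lines was the smallest possible, 0.0556, as for 45% of all start peaks, or 0.123 after adjustment over all start peaks. The upstream start of TXNRD1 went the other way in HCC44, from 576 and 607 bp in DMSO to 774 and 774 bp in ACBI1, against 5.77% of start peaks that were wider there. It was at 456 and 505 bp in H1975 DMSO and 557 and 495 bp in H1975 ACBI1, where the groups overlapped.

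**Figure D4:**
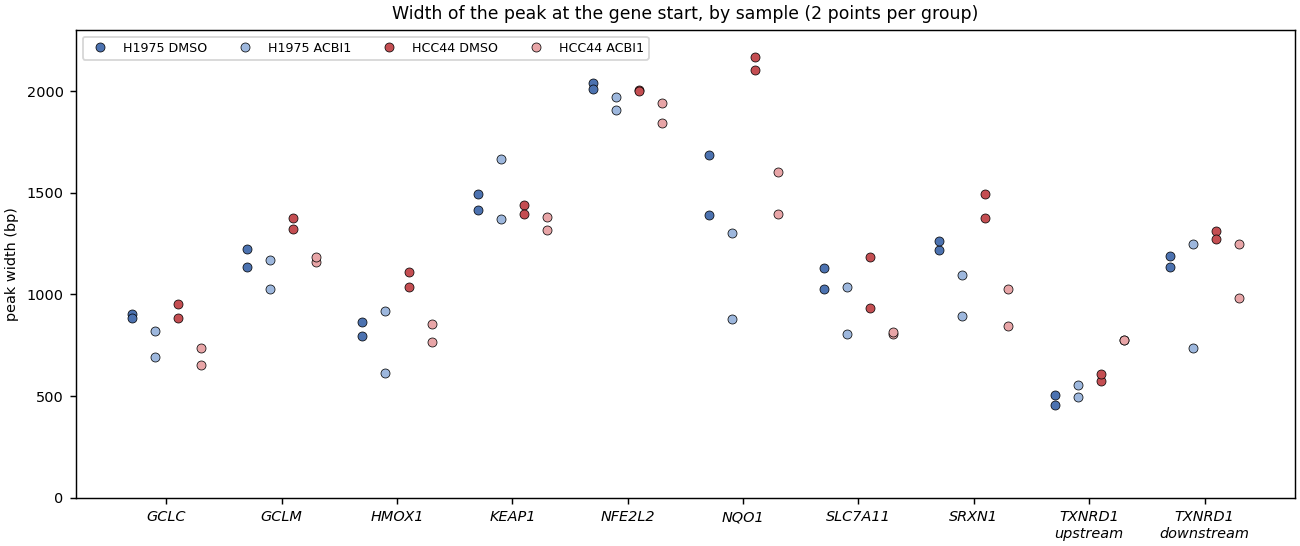
Width in bp (y axis) of the peak at each start that was listed in all 8 samples, with 1 point per sample in 4 groups. The HCC44 ACBI1 points (light red) lie below the HCC44 DMSO points (red) at 9 of the 10 starts and above them at the upstream start of TXNRD1.

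Other genes of the pathway and its targets were read from a list of 55 names, of which 54 matched the gene table. They include partners such as CUL3, MAFG and BACH1, peroxiredoxins, glutathione transferases and ferritin genes. In H1975, 29 of the 54 had fewer peaks in both ACBI1 samples, against 49.5% of all genes, and 1 had more, against 1.65%. That gene was SLC3A2, the partner subunit of SLC7A11 in the cystine importer. It listed 7 and 7 peaks in H1975 DMSO and 8 and 8 in H1975 ACBI1. Its direction was opposite in HCC44, with 10 and 10 peaks in DMSO and 9 and 9 in ACBI1. In HCC44, 35 of the 54 had fewer, against 62.4%, and 0 more, against 2.03%. In both lines 22 had fewer, against 37.5%. These shares were close to those of all genes. The median change was −1 in H1975 and −1.5 in HCC44, as for all genes. In DMSO, HCC44 had more peaks at 21 of the 54, against the 36.9% of all genes given above.

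Among the wide contrasts between the lines were the neighbouring AKR1C1, AKR1C2 and AKR1C3, aldo-keto reductase genes whose windows overlap, singled out here after their values were seen. AKR1C1 listed 1 and 1 peaks in H1975 DMSO and 6 and 7 in HCC44 DMSO. AKR1C2 listed 1 and 1 against 7 and 9, and AKR1C3 1 and 1 against 6 and 8. With ACBI1 the HCC44 counts were 2 and 1 at AKR1C1 and 2 and 2 at both AKR1C2 and AKR1C3, below DMSO in both samples. The H1975 ACBI1 counts were 0 and 0 at both AKR1C1 and AKR1C2, and 1 and 0 at AKR1C3. Counts of these genes at equal list lengths are not given. ABCC1, which encodes a glutathione-conjugate exporter, had no peak in its window in any list.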

How the data were processed

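ATAC-seq was run on 8 samples, 2 replicates in each of 4 groups, with 11 PCR cycles per the labels. The authors deposited 1 list of broad peaks per sample, with 9 columns and no header. Per the submitters' processing notes, BWA was used and the build was hg38. The peak caller and its filters are not given in the sources used here. Each peak's fold enrichment, the authors' ratio over background, and its p-value and q-value, deposited as −log10 values, were used only to rank or filter peaks within a list. The deposited score column was not used. The lowest −log10 q lay between 10.0 and 10.2 in all lists. The depth in reads is unknown, so no counting interval was computed.

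Peaks that overlapped the gene or 50 kb either side by at least 1 bp were counted per gene in 19974 protein-coding genes on the autosomes and the X chromosome, of which 18150 had at least 1 peak in the window. Overlapping peaks (1 bp or more) were joined across samples into regions. Treatments were permuted within each line in an exact two-sided permutation test, with Benjamini-Hochberg adjustment over all genes with a peak. Counting and testing were checked on simulated data. Start windows came from a RefSeq promoter table or, for genes without an entry, from 1 kb either side of either gene end. The gene table gives no strand, exons or introns. All 10 genes were named throughout, with the start region and the best-ranked lost, retained and gained region of each, and further regions where said. Some genes of the marker and pathway lists are not reported here. The genes and lists were chosen with earlier results of these data known. Python 3.11.15, numpy 2.4.6, pandas 2.3.3, scipy 1.17.1 and matplotlib 3.10.9 were used. Alternatives were other thresholds, windows and overlaps, equal list lengths, joined peaks, a replicate block, and each replicate left out.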

Additional observations from a re-analysis of the deposited data

How the results depend on the processing

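Each result was recomputed with a minimum −log10 q of 20, a minimum fold enrichment of 5, equal numbers of 22133 peaks per list taken by −log10 q or by fold enrichment, peaks joined across gaps of up to 1200 bp, other windows or overlaps where they apply, and each replicate left out. Counts over the members were called close within 1.5 times of the reported ones, and percentages within the exact 95% binomial interval. That interval treats regions as independent, although regions of 1 sample are not replicates, so it is only a loose yardstick. By it, a lost share of 33.3% in H1975 at a minimum fold of 5 was called close to the reported 24%. Under these rules 48 values stayed close and 18 moved, and with a replicate left out 36 stayed close and 4 moved. These tallies therefore cannot show how stable the percentages are. The depth in reads is unknown, and its part was not tested. Except for fewer peaks or samples by construction, the cause of each shift was not tested.

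Members with fewer peaks in both ACBI1 samples numbered 1 in H1975 and 1 in HCC44 with equal numbers by −log10 q (13.4% and 15.1% of all genes), and 1 and 0 by fold enrichment (14.3% and 14.4%). In HCC44 they numbered 4 with 20 kb either side (49.6%). Members with more peaks in HCC44 DMSO numbered 0 at a minimum fold of 5 (13.9% of all genes), 1 with equal numbers by −log10 q (19.2%) and 0 by fold enrichment (16.0%). Members with fewer there numbered 2 at a minimum −log10 q of 20 (23.6%), 5 at a minimum fold of 5 (38.4%), 5 with equal numbers by fold enrichment (25.5%), 2 with joined peaks (15.7%) and 0 with 100 kb either side (17.9%). The lost share was 10.7% in H1975 with equal numbers by −log10 q and 77.3% in HCC44 at a minimum fold of 5. Kept start peaks numbered 0 in HCC44 at a minimum fold of 5 and 0 with equal numbers by fold enrichment, which left 4 in H1975. For lost shares and kept start peaks, the value over all genes was not computed under these settings or with a replicate left out. They therefore have no background beside them.

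With each replicate left out, members with fewer peaks in ACBI1 ranged from 5 to 7 for H1975 (51.2% to 65.1% of all genes) and from 7 to 8 for HCC44 (65.9% to 69.4%), and the lost share from 26% to 36% and from 35.2% to 40% respectively. Members with more peaks in HCC44 DMSO ranged from 4 to 5, and with fewer from 1 to 3, reaching 3 without HCC44 DMSO replicate 1 (21.8% of all genes) and 2 without either H1975 DMSO replicate (20.4% and 22.9%). Kept start peaks stayed at 9 in each line. Narrower start peaks ranged from 4 to 9 in H1975, with 9 reached without ACBI1 replicate 1 (90.4% of all start peaks), and stayed at 9 in HCC44.

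Single genes reversed mainly with equal numbers. At a minimum fold of 5 the mean change of KEAP1 over both lines was −2. With equal numbers by −log10 q, reversed changes were 1 at NQO1 and 1 at GCLC in H1975, and 5 at TXNRD1, 1.5 at SRXN1 and 0.5 at HMOX1 in HCC44. Over both lines they were 0.5 at NFE2L2, 1 at NQO1, 0.25 at GCLC, 2.75 at TXNRD1, 1 at SRXN1 and 0.25 at HMOX1. With equal numbers by fold enrichment they were 2 at NQO1, 1 at GCLC and 3.5 at HMOX1 in H1975. In HCC44 they were 1 at GCLM, 1 at GCLC, 4 at TXNRD1, 2 at SRXN1, 2 at HMOX1, 0.5 at SLC7A11 and 1 at AKR1B10. Over both lines they were 1.5 at NFE2L2, 2 at NQO1, 0.75 at GCLM, 1 at GCLC, 3.75 at TXNRD1, 1.25 at SRXN1, 2.75 at HMOX1 and 0.5 at AKR1B10.

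Same-numbered replicates share a number and a prefix of the sample title, and whether they were prepared together is unknown here. The correlation of their deviations from the group means over 18150 genes was 0.105 in H1975 and 0.0446 in HCC44. With the replicate number as a block, the mean changes stayed the same, and the exact permutation p was 0.125, the smallest possible there, for GCLC (−2), HMOX1 (−3.5), SLC7A11 (−2.25), AKR1B10 (−5) and KEAP1 (1).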
